A study of Mus musculus with 2 samples.

Results

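The growth factor GDF11, the secreted proteins that bind and block it, and the receptors through which it acts were followed across the cell types of the embryonic mouse eye cup. The genes were Gdf11 itself, the antagonists Wfikkn2, Wfikkn1 and Fst (follistatin), and the type II receptors Acvr2a and Acvr2b. They were matched by symbol in the gene list of both libraries, and these 6 of 31053 genes were taken whatever their level. Both libraries came from mouse eye cups at e15.5, each from 3 pooled samples, with cornea, lens and optic nerve dissected away. The control library was Myrf fl/fl and the mutant library Rx>cre Myrf fl/fl, so that both carried floxed Myrf alleles and the mutant also carried Cre driven from Rx sequence in the early eye field. With 1 library per genotype there is no replicate check, and every 95% interval below covers counting error only.

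GDF11 is a secreted ligand of the TGFβ superfamily and a close relative of myostatin. It binds the type II receptors ACVR2A or ACVR2B, which then activate a type I receptor that phosphorylates SMAD2 and SMAD3. WFIKKN1 and WFIKKN2 bind GDF11 and myostatin with high selectivity, whereas follistatin also neutralizes the activins. In the mouse retina, GDF11 is known to limit the period in which progenitors make retinal ganglion cells. Neural retina, ciliary margin and retinal pigment epithelium (RPE) derive from the eye field, whereas the mesenchyme around the eye comes from neural crest and mesoderm.

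The cells were clustered without the genes described here and named from marker genes, with "-like" marking that the names were rebuilt from the counts. Of 11518 control and 12576 mutant cells kept, 19.8% and 19.3% stayed unnamed, with medians of 1146 and 1193 UMIs (unique molecular identifiers, each standing for 1 captured transcript). The remaining cells fell into 15 classes, 13 of which held at least 50 cells in each library. A level is a gene's share of the UMIs of a class, given as counts per 1000000 (CPM), and levels are compared between classes and libraries for 1 gene at a time. Myrf, the deleted gene, was at 76.7 CPM (95% interval 68.1 to 86.0) in the 376 RPE-like cells of the control and at 29.7 CPM (22.5 to 38.6) in the 205 of the mutant. The deposited counts are per gene, so which part of Myrf the remaining UMIs came from was not determined. Of 8 RPE markers, Rpe65 was at 0 in both libraries and Rgr and Lrat also in the mutant, and the list summed to 3867 and 3915 CPM. Most of these sums was Ttr, at 2917 and 3203 CPM, and the other 7 markers summed to 950.5 CPM in control and 712 CPM in mutant cells, with Rlbp1 at 338 and 225 CPM and Slc16a8 at 174 and 101 CPM. The 2 pools differed in sex markers. The control cells held 3 UMIs in all of the male-specific genes Ddx3y, Eif2s3y, Uty and Kdm5d, against 11994 in the mutant. Xist was found in 71.7% of control and 27.4% of mutant cells. Sex and genotype can therefore not be fully told apart in a whole class, and the main differences are also given for cells that carried Xist and no UMI of these 4 genes. The libraries shared 69 barcodes.

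Per UMI, the ligand was highest in differentiating neurons, and it was also found in pigment epithelium. Gdf11 (ENSMUSG00000025352, GRCm38 chr10:128882295-128891718, minus strand) had its highest level in amacrine or horizontal-like cells, at 41.8 CPM (35.6 to 48.8) in control and 42.5 CPM (37.2 to 48.4) in mutant cells. This class held a shallow cluster, 15, with medians of 1272.5 and 1170 UMIs and the ganglion cell gene Pou4f2 beside Ptf1a and Prdm13 among its leading genes. Gdf11 was at 21.9 and 23.0 CPM in cluster 15 and at 44.8 CPM in both libraries in cluster 8, the rest of the class. The study's stated limit for doublets, which removes cells over 2000 UMIs, left 5 and 4 Gdf11 UMIs in this class and 3 and 2 in retinal progenitor-like cells, and turned the log2 ratio of these classes from 1.44 and 1.62 to -1.39 and -0.58. Photoreceptor precursor-like cells followed at 35.7 and 33.2 CPM and retinal ganglion cell-like cells at 32.1 and 26.2 CPM. RPE-like cells had 104 UMIs in control and 44 in mutant cells, or 27.2 CPM (22.2 to 33.0) and 23.4 CPM (17.0 to 31.4). The intervals of each of these classes overlapped those of the next in both libraries. Retinal progenitor-like cells, the dividing cells from which the neurons arise, stood lower at 15.4 CPM (13.9 to 17.0) and 13.9 CPM (12.7 to 15.1). Mesenchyme-like cells were close to them at 13.8 and 13.5 CPM. Erythroid-like cells held 4 and 2 Gdf11 UMIs among 479 and 418 cells. Free RNA, estimated from haemoglobin UMIs as described for Wfikkn2, would give 5.42 of the 104 and 7.61 of the 44 Gdf11 UMIs of RPE-like cells, and 7.098 of the 160 and 15.8 of the 228 of amacrine or horizontal-like cells. Of all Gdf11 UMIs, mesenchyme-like cells held 32.2% and 23.0%, retinal progenitor-like cells 21.4% and 26.5%, and RPE-like cells 5.58% and 2.33%.

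**Figure D1:**
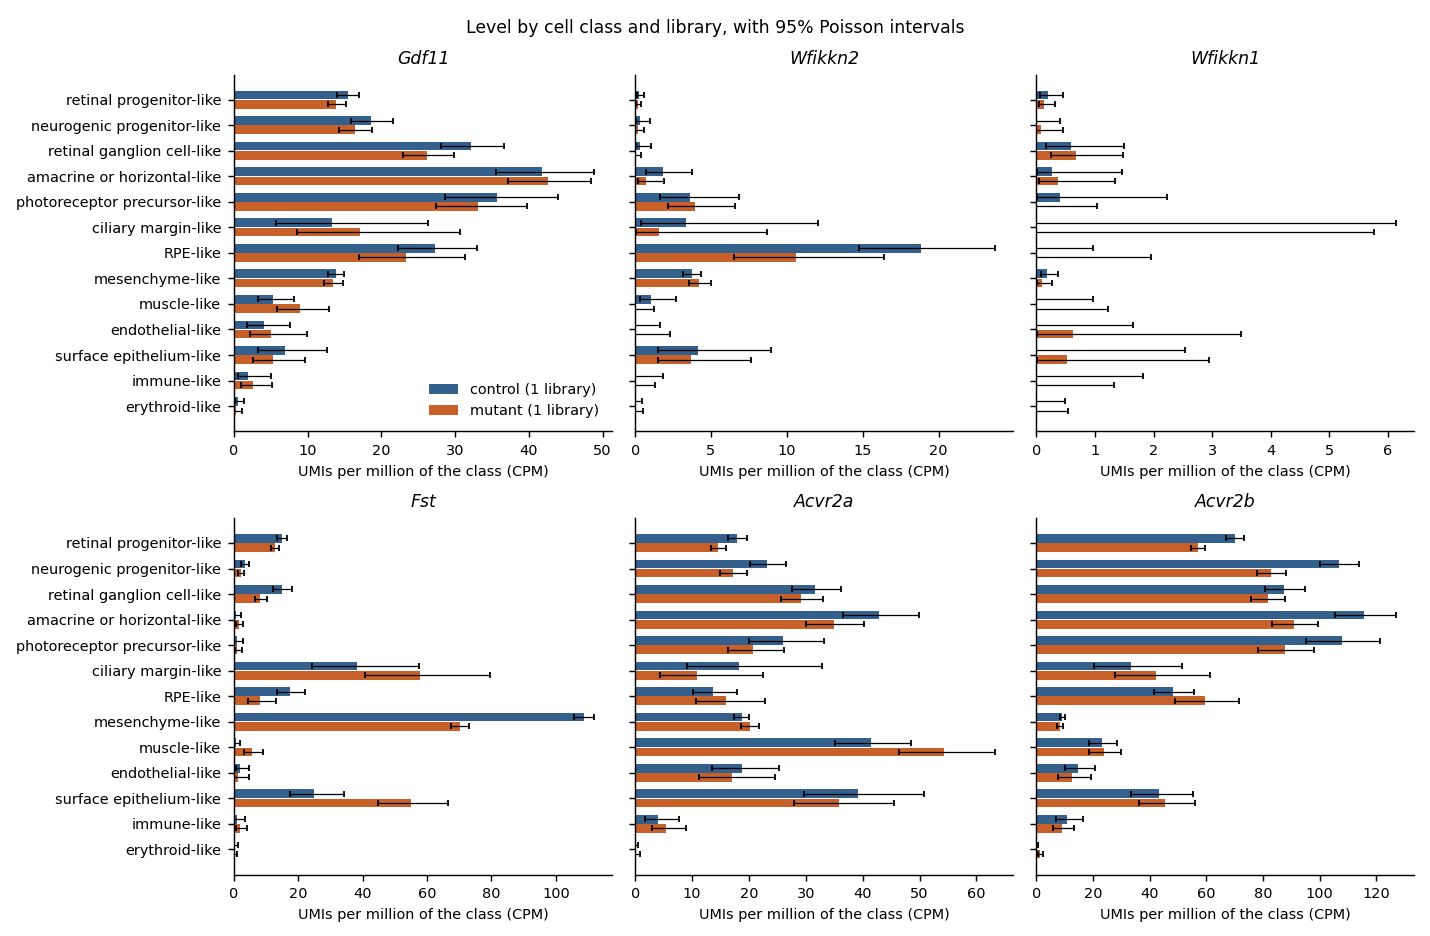
Levels of the 6 genes in the 13 classes with at least 50 cells per library, in CPM, for the control (blue) and mutant (orange) library, with 95% Poisson intervals as lines. Gdf11 and Acvr2b were higher in neurons than in mesenchyme-like cells, Wfikkn2 peaked in RPE-like cells, Fst in mesenchyme-like cells and Acvr2a in muscle-like and amacrine or horizontal-like cells.

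Gdf11 did not climb evenly from progenitors to neurons. Among the neurogenic progenitor-like cells, which are leaving the cell cycle, cluster 12 was led by the proneural genes Neurog2 and Olig2 and held Gdf11 at 6.69 CPM (4.51 to 9.55) in control and 5.99 CPM (4.28 to 8.16) in mutant cells. Cluster 7, led by Gadd45a and by Atoh7, the gene required for ganglion cell fate, held it at 29.9 CPM (25.2 to 35.3) and 28.4 CPM (24.2 to 33.1). The 4 retinal progenitor-like clusters ranged from 10.8 to 20.2 CPM in control and from 11.5 to 17.7 CPM in mutant cells. Cluster 12 was thus the lowest of the retinal clusters in both libraries, and its intervals did not overlap those of cluster 7. Median depth was 12184 and 11757 UMIs per cell in cluster 12 and 9597.5 and 8907 in cluster 7, so the lower level was not in the shallower cells. Ganglion cell-like cluster 18, led by Isl1, had 33.2 and 28.4 CPM, and cluster 21, led by Sncg, had 30.6 and 22.9 CPM. Clusters were formed from the same cells, so these differences are a description.

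**Figure D2:**
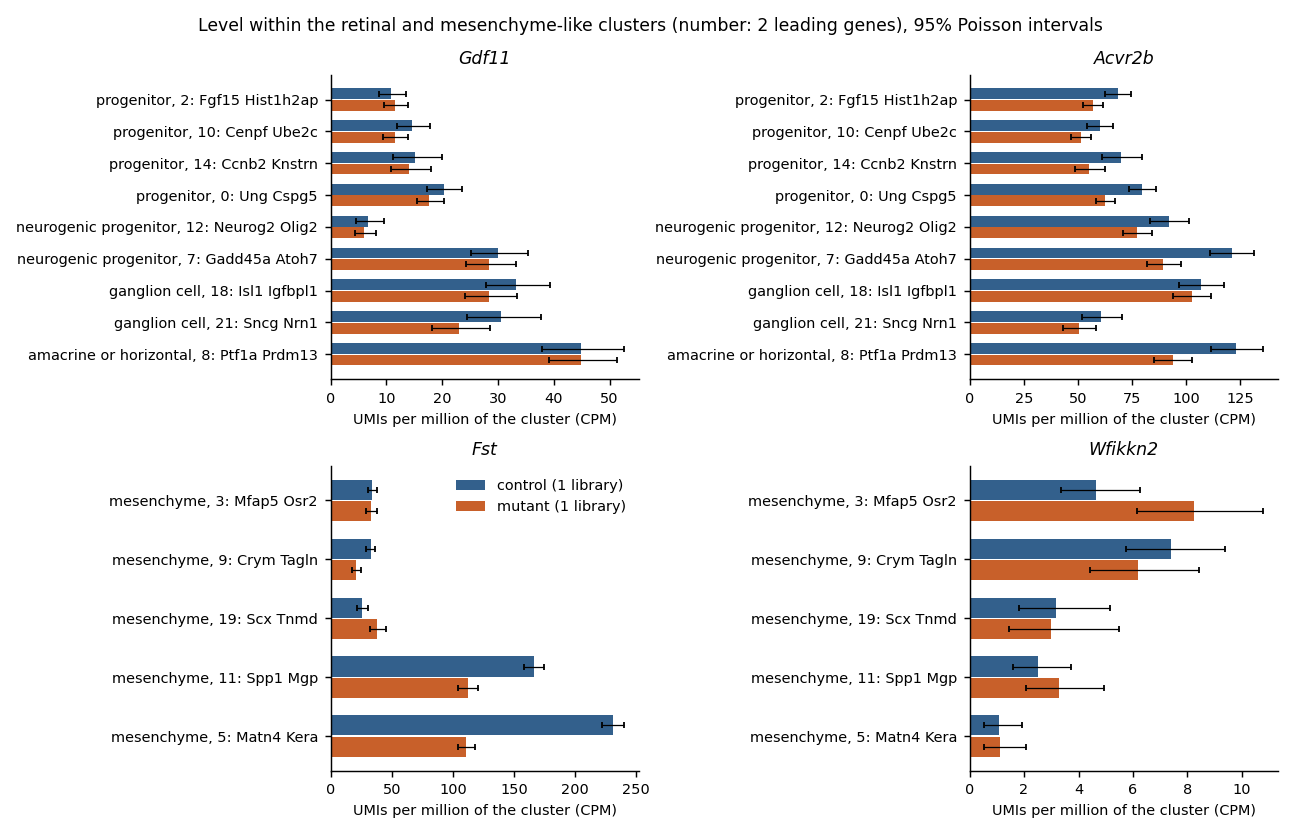
Levels of Gdf11 and Acvr2b in clusters of the neural retina (upper panels) and of Fst and Wfikkn2 in clusters of mesenchyme-like cells (lower panels), in CPM, with 95% Poisson intervals. Each cluster is labelled by class, number and its 2 leading genes. Gdf11 was lowest in the cluster led by Neurog2 and Olig2, and Fst was highest in the cluster led by Matn4 and Kera.

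Wfikkn2 (ENSMUSG00000044177, chr11:94235956-94246005, minus strand) was highest in RPE-like cells. The control library held 72 UMIs in 53 of 376 RPE-like cells and the mutant 20 UMIs in 15 of 205. This gave 18.8 CPM (14.7 to 23.7) and 10.6 CPM (6.49 to 16.4), or a ratio of mutant to control of 0.564 (0.325 to 0.936). The mutant level was lower by more than counting error, but it rested on few cells. The 5 richest of the 15 mutant carriers held 10 of the 20 UMIs. The 5 richest of the 53 control carriers held 20.8%, and such a share depends on the number of carriers. The study, which used these libraries, reported both Wfikkn2 and Gdf11 as decreased in mutant RPE. Their direction here is therefore not independent evidence.

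Depth and cell makeup differed between the 2 groups of RPE-like cells. The median RPE-like cell had 6739.5 UMIs in control and 3564 in mutant cells. The share of RPE-like cells with a Wfikkn2 UMI was 14.1% (control) and 7.32% (mutant). When each cell was thinned to 2000 UMIs, leaving out shallower cells, the shares were 3.21% of 249 cells (1.40 to 6.23) and 3.25% of 123 cells (0.893 to 8.12). They rested on 8 and 4 cells, too few to show a difference of the size seen in the sums. Among cells with at least 5000 UMIs, a limit chosen after seeing the data, the log2 ratio was -0.79, against -0.83 in all RPE-like cells. RPE-like cells with a Wfikkn2 UMI had medians of 15539 and 21158 UMIs, against 4658 and 3173 in those without one. Their RPE markers summed to 7581 and 14417 CPM, against 2784 and 2065 CPM. In erythroid-like cells, with medians of 16830 and 16766.5 UMIs, no cell had a Wfikkn2 UMI, which allows a share of up to 0.626% in control and 0.718% in mutant cells. Haemoglobin UMIs, used here as a mark of free RNA, took 0.609% of RPE-like UMIs in control and 1.52% in mutant cells. Free RNA was not told apart from remaining doublets with erythroid cells. The 5 retinal progenitor markers, all detected in both, summed to 471 CPM and 735 CPM there. The part of these differences in the Wfikkn2 ratio was not tested.

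Split by sex markers, Wfikkn2 rested on few UMIs. RPE-like cells with Xist and no male-specific UMI held 67 Wfikkn2 UMIs in the control (19.9 CPM) and 7 in the mutant (8.67 CPM), or a ratio of 0.435 (0.169 to 0.948). Mutant RPE-like cells with male-specific UMIs and no Xist held 10 (17.8 CPM). Within the mutant library the second group was 2.05 times the first, with an interval of 0.705 to 6.35 that includes no difference.

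Most Wfikkn2 UMIs were not in RPE-like cells. Mesenchyme-like cells, which are many, held 162 of the 276 Wfikkn2 UMIs of the control (58.7%) and 71.1% of those of the mutant, whereas RPE-like cells held 26.1% and 10.5%. The mesenchyme-like level was 3.73 CPM (3.18 to 4.35) and 4.21 CPM (3.53 to 4.98), below the RPE-like interval in both libraries and with a ratio of 1.13 (0.891 to 1.43) between genotypes. Free RNA, estimated from haemoglobin UMIs, would give 11.3 and 4.60 of these UMIs. RPE markers summed to 9.97 and 6.78 CPM in the mesenchyme-like cells with a Wfikkn2 UMI and to 9.02 and 9.11 CPM in those without one. RPE markers in the carriers were thus close to those of the other cells. Retinal progenitor markers were higher in the carriers, at 287 and 454 CPM against 196 and 332 CPM, as were photoreceptor precursor markers. Mesenchyme markers were lower, at 4842 and 5758 CPM against 5841 and 6535 CPM. Schwann cell precursor markers were higher in control carriers and alike in the mutant. Ganglion cell markers were lower in control and higher in mutant carriers. The part of RNA from other cells was not tested.

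Within the mesenchyme, Wfikkn2 was uneven. Cluster 9, led by Crym and Tagln, had 7.39 and 6.19 CPM. Cluster 3, led by Mfap5 and Osr2, had 43 UMIs in control and 52 in mutant cells, which is 4.64 and 8.23 CPM with a ratio of 1.78 (1.16 to 2.72). In cells with Xist and no male-specific UMI this ratio was 1.80 (1.00 to 3.12). The mutant interval of cluster 3, 6.15 to 10.8 CPM, overlapped that of mutant RPE-like cells. The mutant log2 ratio of RPE-like over all mesenchyme-like cells, 1.34, became 0.53 without the 5 richest cells. It became 0.30 where cells carried Xist but no UMI of any Y-linked gene, a value that rests on 1 RPE-like Wfikkn2 UMI. Cluster 5, led by Matn4 and the corneal stroma gene Kera, was the lowest at 1.07 and 1.12 CPM. The order of these clusters was thus not that of Fst, described below.

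Low Wfikkn2 signal also appeared in photoreceptor precursor-like cells. They held 9 UMIs in 9 control cells and 14 in 13 mutant cells, or 3.61 CPM (1.65 to 6.84) and 3.93 CPM (2.15 to 6.60). Retinal progenitor-like cells stood at 0.271 CPM (0.109 to 0.558) and 0.167 CPM (0.0611 to 0.362), below these intervals in both libraries. Free RNA would account for 0.896 and 1.42 of the UMIs. The photoreceptor precursor-like carriers held 4 and 2 UMIs of the RPE markers, or 65.5 and 23.8 CPM, against 33.3 and 23.3 CPM in the cells without Wfikkn2. Their mesenchyme markers, at 5 and 8 UMIs, summed to 81.9 and 95.2 CPM, against 58.7 and 45.8 CPM. The part of RNA from other cells in this signal was not tested. In retinal ganglion cell-like cells Wfikkn2 had 2 and 0 UMIs, and immune-like and endothelial-like cells had none.

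Wfikkn1 (ENSMUSG00000071192, chr17:25877628-25880858, minus strand), the other member of the WFIKKN pair, was barely detected. RPE-like cells held no Wfikkn1 UMI, which allows a level of up to 0.785 CPM in control and 1.59 CPM in mutant cells. The highest level in a neural class was in retinal ganglion cell-like cells, at 4 UMIs in the control (0.584 CPM, 0.159 to 1.495) and 6 in the mutant (0.676 CPM, 0.248 to 1.47). Its levels elsewhere could not be put in order at this depth.

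Most Fst UMIs were in mesenchyme-like cells. Fst (ENSMUSG00000021765, chr13:114452290-114458951, minus strand) had 4722 UMIs in mesenchyme-like cells of the control, or 109 CPM (106 to 112), and 2253 in the mutant, or 70.2 CPM (67.3 to 73.2). These were 84.2% and 70.5% of all Fst UMIs in the kept cells. The mutant level was 0.646 times the control (0.614 to 0.679). A UMI of Fst was seen in 38.3% and 32.9% of mesenchyme-like cells, and in 14.8% and 9.46% after thinning to 2000 UMIs, against 0.626% and 0.239% of erythroid-like cells at greater median depth. The difference was thus present both in the sums and in the shares at equal depth.

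The mesenchyme-like clusters did not share this difference. In cluster 5 (Matn4, Kera) Fst was at 231 CPM in control and 111 in mutant cells, or a ratio of 0.481 (0.446 to 0.518). At a finer resolution, an alternative chosen after seeing the data, most of these cells fell into a group led by Tnn and Aspn, with 449 control and 234 mutant cells, and a group led by A2m and Kera, with 265 and 310. Fst was at 307 and 199 CPM in the first, a ratio of 0.648 (0.591 to 0.710), and at 135 and 62.7 CPM in the second, a ratio of 0.463 (0.406 to 0.528). The mutant cells thus lay more in the group with less Fst, and Fst was lower in the mutant within each group. In cluster 11, led by the matrix genes Spp1 and Mgp, it was at 166 and 112 CPM, or a ratio of 0.675 (0.619 to 0.736). In cluster 9 the ratio was 0.645 (0.523 to 0.793). Cluster 3 showed almost no difference, at 34.2 and 33.2 CPM with a ratio of 0.972 (0.813 to 1.16). Cluster 19, led by the tendon genes Scx and Tnmd, went the other way, at 25.8 CPM in control and 38.3 in mutant cells, or a ratio of 1.48 (1.15 to 1.91). By the mean log2 fold of its markers cluster 11 matched pericytes (1.55) better than mesenchyme (1.25), with the pericyte gene Rgs5 among its leading genes, and it was kept in the class for its other leading genes. Without it, an alternative chosen after seeing the data, the log2 ratio of Fst in mesenchyme-like cells was -0.66, against -0.63. The lower Fst of the mutant was therefore found in the clusters where the gene was highest and in cluster 9.

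The mesenchymal Fst level also differed with the sex markers. Mesenchyme-like cells with Xist and no male-specific UMI had Fst at 109 CPM in control and 86.1 CPM in mutant cells, or a ratio of 0.787 (0.735 to 0.841). Mutant cells with male-specific UMIs and no Xist had 61.6 CPM, or 0.715 times (0.654 to 0.782) the mutant cells with Xist. In cluster 5 the corresponding values were 231, 125 and 96.3 CPM, with a ratio of 0.540 (0.490 to 0.594) between genotypes among cells with Xist. In cluster 19 the ratio among cells with Xist was 0.980 (0.648 to 1.45), so the higher value of the mutant was not seen there. The difference between genotypes among cells with Xist was thus smaller than in all cells for both the class and cluster 5, and beyond counting error in both. Among cells with Xist the ratio was 0.856 (0.763 to 0.959) in cluster 11 and 0.806 (0.588 to 1.08) in cluster 9. Each library pooled 3 samples, and differences between them cannot be told apart from either comparison.

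**Figure D3:**
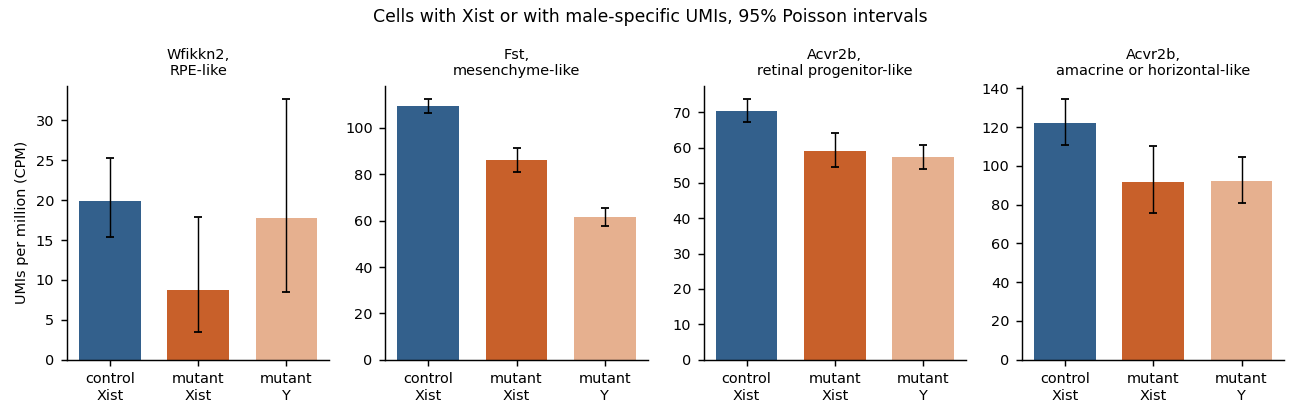
Levels of Wfikkn2, Fst and Acvr2b, in CPM with 95% Poisson intervals, in control cells with Xist and no male-specific UMI, mutant cells of the same kind, and mutant cells with male-specific UMIs and no Xist (labelled Y). Fst in mesenchyme-like cells stepped down from 109 to 86.1 and 61.6 CPM, whereas the intervals of Acvr2b overlapped between the 2 groups of mutant cells.

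In surface epithelium-like cells, led by keratin genes such as Krt5 and Krt12, Fst went the opposite way. It had 36 UMIs in the control (24.7 CPM, 17.3 to 34.2) and 104 in the mutant (54.9 CPM, 44.8 to 66.5), or a ratio of 2.22 (1.51 to 3.34). In cells with Xist and no male-specific UMI the ratio was 2.10 (1.37 to 3.26). Cells with Xist and no UMI of any gene annotated on chromosome Y held 14 and 1 Fst UMIs and gave a log2 ratio of -1.44. That limit also removed control cells, though none in this class had a male-specific UMI, so it is not a split by sex. The 5 richest cells held 72.2% and 60.6% of the 36 and 104 UMIs, so few cells set both levels. Ciliary margin-like cells, a small cluster led by Cartpt and by Pax2, which is better known from the optic stalk, had 38.3 CPM (24.3 to 57.5) and 57.7 CPM (40.6 to 79.5), with overlapping intervals. In muscle-like cells Fst had 2 UMIs in control and 17 in mutant cells, 76.5% of the latter in 5 cells.

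RPE-like cells carried little Fst. They held 66 UMIs in the control (17.3 CPM, 13.4 to 22.0) and 15 in the mutant (7.97 CPM, 4.46 to 13.1), or a ratio of 0.461 (0.245 to 0.817). The size of this difference was not stable, as the log2 ratio of -1.12 became -2.30 after thinning, -2.39 without the 5 richest cells, -3.03 without cells over 20000 UMIs and -3.24 after subtracting free RNA, on 1 to 4 mutant UMIs. Among cells with Xist and no male-specific UMI the ratio was 0.605 (0.264 to 1.22). The haemoglobin estimate of free RNA came to 16.3 and 12.9 of these UMIs. The same estimate came to 18.2 and 23.9 UMIs in photoreceptor precursor-like cells, where 2 and 3 were counted, so for Fst it was too high there. How much of the RPE-like Fst was free RNA was not determined.

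In the neural retina, Fst separated the classes sharply. Retinal progenitor-like cells had 14.8 CPM (13.4 to 16.4) and 12.7 CPM (11.5 to 13.9), or a ratio of 0.855 (0.745 to 0.982) that was 0.974 (0.799 to 1.18) among cells with Xist and no male-specific UMI. The log2 ratio of -0.23 turned to 0.23 in cells with Xist and no UMI of any gene annotated on chromosome Y. Neurogenic progenitor-like cells had 3.38 and 2.09 CPM. Amacrine or horizontal-like cells held 3 and 8 UMIs and photoreceptor precursor-like cells 2 and 3, which gave levels at or under 1.49 CPM. Fst was thus present in cycling progenitors and had intervals that overlapped the erythroid-like ones in differentiating amacrine, horizontal and photoreceptor cells.

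Retinal ganglion cell-like cells were the exception, through a handful of cells. They held 102 Fst UMIs in 18 of 415 cells in control and 73 in 18 of 523 in mutant cells, or 14.9 CPM (12.1 to 18.1) and 8.22 CPM (6.44 to 10.3). All but 0 and 3 of these UMIs were in cluster 21. The richest cells held 31, 30, 11 and 10 UMIs in control and 15, 10, 10 and 9 in mutant cells, and the 5 richest together held 83.3% and 71.2%. The ratio of 0.552 (0.403 to 0.753) therefore rests on these cells, and without the 5 richest of each library the log2 ratio was -0.08. The interval of the ratio assumes independent UMIs and is too narrow for a gene held by so few cells. The log2 ratio of -0.86 turned to 0.74 in cells with Xist and no UMI of any gene annotated on chromosome Y.

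The 5 control and 8 mutant cells with at least 3 Fst UMIs carried ganglion cell markers at the level of their class. Their ganglion cell markers summed to 7592 and 9131 CPM, against 7639 and 7430 CPM in cells of the class without Fst. Their mesenchyme markers summed to 16.6 and 16.8 CPM, below the 38.8 and 21.8 CPM of the cells without Fst. Their RPE markers, 6 UMIs in each library, summed to 49.8 and 33.6 CPM, above the 14.7 and 12.8 CPM of those cells. Genes that stood out in these cells in both libraries were picked after their values were seen and are a description. Eomes, a transcription factor of intrinsically photosensitive ganglion cells, was at 373 and 706 CPM, against 33.9 and 26.8 CPM in the Fst-free cells of cluster 21. Synm, which encodes an intermediate filament protein, was at 573 and 941 CPM, against 44.2 and 45.9 CPM. Igf1, which encodes a growth factor, was at 224 and 723 CPM, against 43.0 and 32.9 CPM. Irx1, a homeobox gene, was at 91.3 and 179 CPM, against 12.4 and 6.77 CPM.

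**Figure D4:**
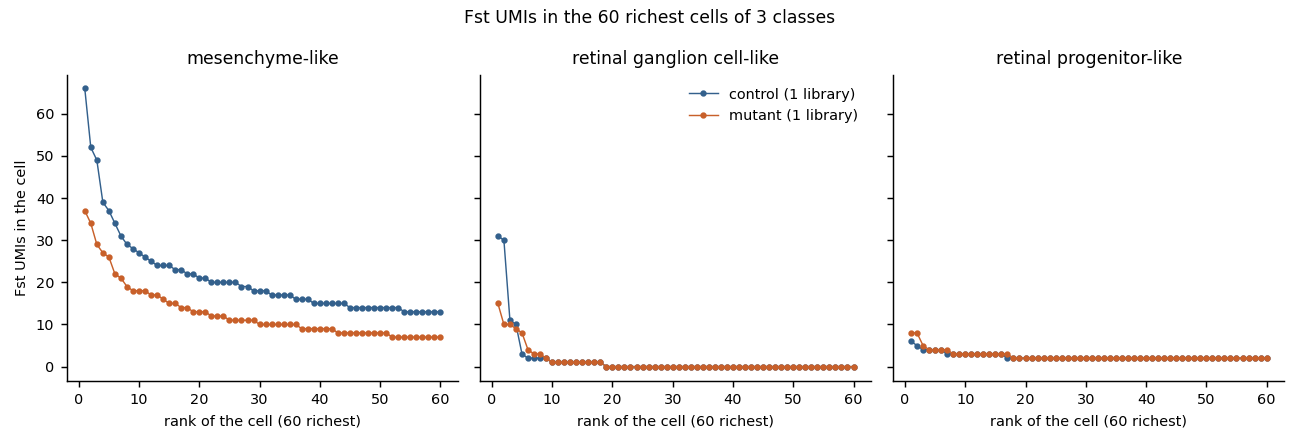
Fst UMIs per cell in the 60 cells richest in Fst, ranked, for mesenchyme-like, retinal ganglion cell-like and retinal progenitor-like cells of each library. Many mesenchyme-like cells carried Fst, whereas in the ganglion cell-like class it was held by a few cells with up to 31 UMIs in control and 15 in mutant cells.

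The type II receptors had different maps. Acvr2a (ENSMUSG00000052155, chr2:48814109-48903269, plus strand) was high in muscle-like cells, the forming extraocular muscles, at 41.4 CPM (35.2 to 48.4) in control and 54.3 CPM (46.4 to 63.3) in mutant cells, the top class of the mutant library. Amacrine or horizontal-like cells were at 42.9 and 34.9 CPM and surface epithelium-like cells at 39.1 and 35.9 CPM, and the control intervals of these classes overlapped. Retinal progenitor-like cells had 17.9 CPM (16.3 to 19.6) and 14.6 CPM (13.4 to 15.9) and mesenchyme-like cells 18.7 and 20.2 CPM. RPE-like cells stood at 13.6 CPM (10.2 to 17.8) and 15.9 CPM (10.8 to 22.7). Acvr2a was therefore spread over most lineages, while erythroid-like cells held 0 and 1 UMI.

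Between genotypes, the Acvr2a ratio was 0.817 (0.720 to 0.928) in retinal progenitor-like cells and 0.742 (0.610 to 0.901) in neurogenic progenitor-like cells. Among cells with Xist and no male-specific UMI these were 0.834 (0.690 to 1.005), which includes no difference, and 0.686 (0.505 to 0.919). In muscle-like cells it was 1.31 (1.05 to 1.64), and 1.40 (1.00 to 1.93) among cells with Xist. After thinning each cell to 2000 UMIs this direction turned to a log2 ratio of -0.62, with 18 of 166 control and 11 of 148 mutant muscle-like cells carrying a UMI, so the higher value of the mutant was not stable at equal depth. In RPE-like cells the ratio of 1.17 (0.721 to 1.87) did not leave counting error, and its log2 value of 0.23 became 0.93 without cells over 20000 UMIs.

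Acvr2b (ENSMUSG00000061393, chr9:119402118-119434995, plus strand) was highest in neural classes of the retina. Amacrine or horizontal-like cells had 116 CPM (105 to 127) in control and 91.0 CPM (83.1 to 99.5) in mutant cells. Photoreceptor precursor-like cells had 108 and 87.7 CPM, neurogenic progenitor-like cells 107 and 82.8 CPM, and ganglion cell-like cells 87.4 and 81.8 CPM. Retinal progenitor-like cells followed at 70.0 CPM (66.8 to 73.3) and 57.1 CPM (54.7 to 59.6). RPE-like cells had 48.1 CPM (41.4 to 55.6) and 59.5 CPM (49.0 to 71.6), the latter overlapping the retinal progenitor-like interval. Surface epithelium-like cells had 43.3 and 45.4 CPM and ciliary margin-like cells 33.3 and 42.1 CPM. Mesenchyme-like cells were far below at 9.07 CPM (8.20 to 10.0) and 8.26 CPM (7.29 to 9.31), whereas Fst was higher there than in retinal progenitor-like cells. Free RNA, estimated from haemoglobin UMIs, would give 209 of the 394 control and 131 of the 265 mutant Acvr2b UMIs of mesenchyme-like cells.

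The ganglion cell-like clusters differed in Acvr2b. Cluster 18, led by Isl1, had 107 and 102 CPM, and cluster 21, led by Sncg, Nrn1 and the neurofilament genes, had 60.5 and 50.4 CPM. The neurogenic progenitor-like cluster 7 had 121 and 89.5 CPM. Cluster 12, the lowest in Gdf11, was at 92.1 and 77.1 CPM, between the retinal progenitor-like clusters and cluster 7.

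Acvr2b was lower in the mutant, by more than counting error, in 4 of 5 neural classes when all cells were counted. The ratio was 0.816 (0.765 to 0.869) in retinal progenitor-like, 0.775 (0.710 to 0.847) in neurogenic progenitor-like, 0.786 (0.690 to 0.896) in amacrine or horizontal-like and 0.813 (0.689 to 0.961) in photoreceptor precursor-like cells. In ganglion cell-like cells it was 0.935 (0.838 to 1.04). All 4 retinal progenitor-like clusters were lower in the mutant, with ratios from 0.786 to 0.857 and no interval that reached 1. Of all genes, 14% had an interval below 1 in retinal progenitor-like, 10.3% in neurogenic progenitor-like, 6.35% in amacrine or horizontal-like and 7.53% in photoreceptor precursor-like cells. In amacrine or horizontal-like cells the log2 value of -0.35 turned to 0.049 without cells over 2000 UMIs. Among cells with Xist and no male-specific UMI the ratio was 0.838 (0.763 to 0.920) in retinal progenitor-like cells and 0.751 (0.605 to 0.926) in amacrine or horizontal-like cells. Within the mutant, cells with male-specific UMIs had 0.971 times (0.878 to 1.07) the level of cells with Xist in retinal progenitor-like cells. These differences of less than 1.5-fold are between 2 libraries, and the spread between libraries of 1 genotype is unknown. In RPE-like cells Acvr2b had a ratio of 1.24 (0.968 to 1.57), which includes no difference, and its log2 value of 0.31 changed sign without cells over 20000 UMIs (-0.18) and at a mitochondrial limit of 5% (-0.065). In mesenchyme-like cells the ratio was 0.910 (0.776 to 1.07), and 0.698 (0.540 to 0.892) among cells with Xist and no male-specific UMI. Free RNA would give 209 of the 394 control and 131 of the 265 mutant UMIs of this class. Its part in these ratios was not tested.

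Few cells showed UMIs of both receptors. At 2000 UMIs per cell, 12 of 2307 control and 8 of 3397 mutant retinal progenitor-like cells held both, and 15.6% and 13.8% held either. The share with either was largest in amacrine or horizontal-like cells, at 29.1% and 23.2%, and was 15.3% and 16.3% in RPE-like cells. Mesenchyme-like cells had 5.77% and 5.31%, and erythroid-like cells had none of 459 and 404. At this depth a cell without a UMI cannot be called a cell without the receptor.

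The members were also set against all genes of a class. In RPE-like cells, 5 of the 6 genes had at least 20 UMIs over both libraries, and 2 of these, Wfikkn2 and Fst, differed by 1.5-fold or more in either direction, where 13.8% of the 11014 genes measured did so. These 5 had a median log2 ratio of -0.22, against -0.07 over all genes. In retinal progenitor-like cells none of 4 measured members passed that fold, with 5.52% of all genes beyond it, and their median of -0.26 compared with -0.02. In retinal ganglion cell-like cells 1 of 4, Fst, passed it, with 7.36% of all genes, and in mesenchyme-like cells 1 of 5, again Fst, with 8.51% of all genes. The medians there were -0.21 and -0.03, against -0.02 and -0.01 over all genes. Gdf11 itself was within the fold in each of these classes, and its ratios were 0.859 (0.590 to 1.23) in RPE-like, 0.900 (0.787 to 1.03) in retinal progenitor-like, 0.817 (0.677 to 0.987) in ganglion cell-like and 0.977 (0.861 to 1.11) in mesenchyme-like cells. In RPE-like cells the Gdf11 log2 ratio of -0.22 became -0.80 without cells over 20000 UMIs (65 and 17 UMIs) and -0.98 after thinning to 2000 UMIs (12 and 3 UMIs), both past the fold. The study, which used these libraries, reported a decrease of Gdf11 in mutant RPE, so this direction is not independent evidence.

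**Figure D5:**
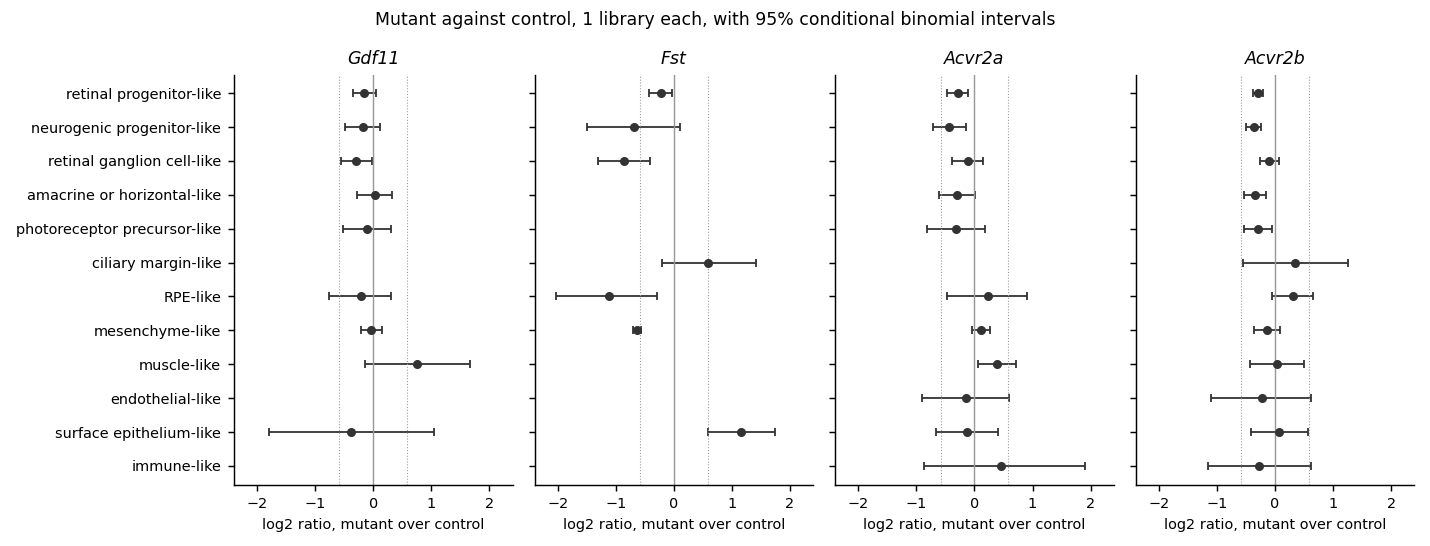
Log2 ratio of the mutant to the control library for Gdf11, Fst, Acvr2a and Acvr2b by class, with 95% conditional binomial intervals, where the libraries together held 20 UMIs or more. Dotted lines mark 1.5-fold either way. Gdf11 lay within 1.5-fold in retinal progenitor-like, ganglion cell-like, mesenchyme-like and RPE-like cells when all cells were counted, Fst lay below 0 in mesenchyme-like cells and above it in surface epithelium-like cells, and Acvr2b lay slightly below 0 in most neural classes.

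The ligand's relatives and the rest of the pathway were examined through 39 further genes in 7 lists. With at least 20 UMIs, 27 of them were measured in RPE-like, 30 in retinal progenitor-like, 24 in ganglion cell-like and 33 in mesenchyme-like cells. Beyond 1.5-fold were 3 of 27 in RPE-like cells (13.8% of all genes), 3 of 30 in retinal progenitor-like cells (5.52%), 2 of 24 in ganglion cell-like cells (7.36%) and 5 of 33 in mesenchyme-like cells (8.51%), and the median log2 ratios were -0.05, 0.09, -0.02 and 0.05. In RPE-like cells the 7 SMAD genes and their brakes were all measured, with 1 interval above 1 and none below, against 5.12% and 8.19% of all genes. This was Smad7, an inhibitor of the pathway that the pathway itself induces, at 25.6 and 35.6 CPM, or a ratio of 1.39 (1.00 to 1.91). Of the 5 measured SMAD2/3 response genes there, 1 had an interval above 1 and none below. This gene, Ctgf, which encodes a secreted matrix protein, was at 14.1 and 35.1 CPM, or a ratio of 2.48 (1.71 to 3.62). The study, which used these libraries, had named Ctgf among its upregulated genes, so this direction is not independent evidence.

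In retinal progenitor-like cells, 3 of the 4 retinal genes placed downstream of GDF11 in earlier mouse work had intervals above 1, as had 9.21% of all genes measured in the class. Atoh7 was at 47.4 and 68.1 CPM, or a ratio of 1.44 (1.34 to 1.54). Neurod1, a photoreceptor and amacrine determination gene, was at 11.9 and 14.8 CPM, or a ratio of 1.24 (1.08 to 1.43). Smad3, a transducer of the signal, was lower at 12.3 and 9.96 CPM, or a ratio of 0.813 (0.697 to 0.949), with 3 of the 7 SMAD genes and brakes below 1, as were 14% of all genes, and none above. Of the 5 measured SMAD2/3 response genes 1 was above 1, Pmepa1, at 600.0 and 694 CPM with a ratio of 1.16 (1.13 to 1.18). In ganglion cell-like cells 2 of the 4 retinal genes were above and 2 below 1, as were 1 and 2 of the 4 measured SMAD2/3 response genes, where 5.9% of all genes were above and 7.63% below. Of the SMAD2/3 response genes, Tgif1 was at 21 and 12 UMIs and Pmepa1 at 49.6 and 67.7 CPM.

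The other lists held few intervals off 1. Of the type I receptors, 1 of 4 measured was below 1 in retinal progenitor-like cells and none was off 1 in the other 3 classes. Of the ligand processing genes, 2 of 5 were above and 1 below 1 in mesenchyme-like cells, and of the other inhibitors 1 of 5 was above and 1 below there, with none off 1 elsewhere. In mesenchyme-like cells 14.6% of all genes were above and 17.5% below 1. No related ligand with enough UMIs had an interval off 1.

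Retinal genes were also counted in mesenchyme-like cells. All 4 of the retinal list were more than 1.5-fold higher in the mutant there, where 8.51% of all genes passed that fold either way, with a median log2 ratio of 1.67. Atoh7 was at 22.9 and 81.2 CPM and Pou4f2, a ganglion cell transcription factor, at 20 and 42 UMIs. The retinal progenitor and neurogenic progenitor markers summed to 200 and 80.9 CPM in control and to 339 and 189 CPM in mutant mesenchyme-like cells. The part of RNA from other cells in the Atoh7 values of the other classes was not tested.

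Mstn, which encodes myostatin, was named after its values were seen, because it shares receptors and antagonists with Gdf11. It was at 60.2 and 79.4 CPM in muscle-like cells and at 49.8 and 55.4 CPM in retinal ganglion cell-like cells, on 341 and 492 UMIs in the latter. Retinal progenitor-like cells held 0 and 6 Mstn UMIs and RPE-like cells none. Ganglion cell-like cells thus held the transcripts of both ligands, and muscle-like cells that of Mstn together with high Acvr2a.

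The genes with the most similar patterns were sought over the 13 classes in both libraries, which gave 26 points that share cells, library depth and class definitions. Pearson's r of log2(CPM + 10) is a description of these points. For Gdf11 the closest were Bicd1 (r = 0.953), Rimklb (0.949) and Lrp3 (0.932). For Wfikkn2 they were 2810433D01Rik (0.921), Otor (0.894) and Gm19531 (0.893). For Fst they were Sema5a (0.929), Syndig1 (0.898) and Plce1 (0.880). For Acvr2a they were Homer1 (0.869), Hgh1 (0.868) and Ppp1r14b (0.858), and for Acvr2b they were Rab3ip (0.943), Bex2 (0.943) and Epha5 (0.935). Acvr2a had the weakest matches of the 5, and Wfikkn1 had too few UMIs to be compared.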

How the data were processed

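Single cells of e15.5 eye cups were measured with 10x Genomics 3′ chemistry. The deposited values were raw counts of UMIs over 31053 genes, which the authors had not normalized. The submitters' processing notes name mm10, Cell Ranger 7.1.0 and Seurat 4.1.1, whereas the matrix headers give software 3.1.0. The libraries held 13017 control and 13880 mutant barcodes with 132436816 and 135678976 UMIs. Groups were taken from the genotype in the labels.

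Cells with under 200 genes or over 15% mitochondrial UMIs were removed, as were doublets called by Scrublet (scanpy 1.11.5), 424 and 442 barcodes, or 3.55% and 3.40%, which leaves doublets among the kept cells. Clustering used 1904 of the 2000 most variable genes, and left out the members, the pathway lists, the genes used for naming, Xist, and the haemoglobin, Y-linked and mitochondrial genes (30 components, 15 nearest neighbours, Leiden at 1.0). Of 30 clusters 27 were named by a mean log2 fold of their markers of at least 0.7, with limits set after the data were seen. Names were rebuilt and may differ from the study's, and class sizes were not compared.

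Counts were summed over a class per library (scipy 1.17.1), with exact Poisson intervals for CPM, exact conditional binomial intervals for ratios and Clopper-Pearson intervals for shares, all at 95% and for counting error only. No test was made between libraries, and cells were not used as replicates. A count of 0 was set to a limit of 3 counts. This limit, not an exact interval, also gave the levels stated as allowed where no UMI was found. With 3 or fewer UMIs on both sides no ratio was given. Free RNA was estimated per class as its haemoglobin share over that of all kept cells. The 6 members are described in every class with at least 50 cells per library, along with, for each class discussed, the 3 pathway genes of largest ratio with at least 20 UMIs and an interval off 1, and the 3 genes most like each member in log2(CPM + 10) among those with at least 200 UMIs. A pathway gene that this rule names is not reported here. The members, lists and markers were chosen with earlier results of these data known. Coordinates are those of GRCm38. Fst, Acvr2b and Wfikkn1 overlap an RNA gene on the other strand and Acvr2a overlaps Orc4, and whether counting used strand is not given in the sources used here.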

Additional observations from a re-analysis of the deposited data

Results flagged for a closer look

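Fst was flagged because its ratio of mutant to control left counting error in opposite directions in different classes. It was 0.461 in RPE-like, 0.552 in retinal ganglion cell-like, 0.646 in mesenchyme-like, 0.745 in Schwann cell precursor-like and 0.855 in retinal progenitor-like cells, against 2.22 in surface epithelium-like cells. Acvr2a was flagged in the same way, with 0.506 in Schwann cell precursor-like, 0.742 in neurogenic progenitor-like and 0.817 in retinal progenitor-like cells, against 1.31 in muscle-like cells. The Schwann cell precursor-like Fst value rested on 1 control cell with 81 of the 194 UMIs. Without the richest cell of each library, an alternative chosen after seeing the data, its log2 ratio turned from -0.42 to 0.097, whereas that of surface epithelium-like cells was 1.15 with and without it. With 1 library per genotype, the difference between classes was not tested for either gene. The 5 richest cells held 72.2% and 60.6% of the Fst UMIs of surface epithelium-like cells in the control and mutant, and 72.2% and 50.6% of those of Schwann cell precursor-like cells.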

How the results depend on the processing

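No paired analysis was possible because each genotype had 1 library. Of 341 values under alternative settings, 139 for the main comparisons and 118 for the others lay inside the reported value's counting interval or within 1.5 times the reported count, 54 and 18 moved beyond it and 3 and 9 reversed. Values below are log2 ratios, of mutant to control unless classes are named, and settings that left 3 or fewer UMIs on both sides gave none. The causes of these shifts were not tested.

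With each cell thinned to 2000 UMIs, RPE-like ratios were -0.98 for Gdf11, 0.017 for Wfikkn2 (reversed, on 8 and 4 UMIs) and -2.30 for Fst, against -0.22, -0.83 and -1.12. Fst in mesenchyme-like cells was -0.79 (main -0.63), Acvr2b in retinal progenitor-like cells -0.14 (main -0.29) and Acvr2a in muscle-like cells -0.62 (reversed from 0.39). Between classes, Wfikkn2 in RPE-like over mesenchyme-like cells was 1.57 (control), Fst in mesenchyme-like over retinal progenitor-like cells 2.18 (mutant), Acvr2a in muscle-like over retinal progenitor-like cells 1.64 and 1.504, and Acvr2b in retinal progenitor-like over mesenchyme-like cells 3.13 (mutant). Without cells over 20000 UMIs, the RPE-like ratios were -0.80 for Gdf11, -3.03 for Fst, 0.93 for Acvr2a and -0.18 for Acvr2b (main 0.31 for Acvr2b), Acvr2a muscle over progenitor was 1.55 (control) and Acvr2b progenitor over mesenchyme 3.03 (mutant). Without cells over 2000 UMIs, the study's stated limit for doublets, which leaves few, Acvr2b was -0.50 in retinal progenitor-like and 0.049 in amacrine or horizontal-like cells (reversed from -0.35), and Gdf11 in amacrine or horizontal-like over retinal progenitor-like cells was -1.39 and -0.58 (reversed from 1.44 and 1.62).

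Another setting kept cells with Xist and no UMI of any gene annotated on chromosome Y. It also removed control cells without a male-specific UMI, so it is not a split by sex. There, Wfikkn2 was -1.93 in RPE-like cells (39 and 1 UMIs), Fst -0.53 in mesenchyme-like cells and Acvr2b -0.13 in retinal progenitor-like cells. Fst turned to 0.23 in retinal progenitor-like, 0.74 in ganglion cell-like and -1.44 in surface epithelium-like cells (14 and 1 UMIs). Class ratios there were 2.41 for Gdf11 and 0.30 for Wfikkn2 (mutant), 3.07 and 2.30 for Fst, 2.81 for Acvr2a and 3.67 for Acvr2b (mutant). With 4 male-specific genes instead, chosen after seeing the data, Fst in mesenchyme-like cells was -0.35. Fst in Schwann cell precursor-like cells (-0.42) turned to 0.96 and 0.089 under these sex-marker settings, to 0.40 without the 5 richest cells and to 0.097 without the richest. Without cluster 11, also chosen after seeing the data, Fst mesenchyme over progenitor was 2.64 and 2.21 and Acvr2b progenitor over mesenchyme 3.00 (mutant), and leaving out cluster 15, chosen likewise, moved no value beyond its interval. Leiden resolution 2.0 gave 3.03 for Fst mesenchyme over progenitor (control). Keeping doublets gave 2.53 and 2.35 for Acvr2b progenitor over mesenchyme, and subtracting free RNA 3.87 and 3.64, with -3.24 for Fst in RPE-like cells. Means of per-cell CPM gave 1.09 and 1.23 for Gdf11, 1.86 for Wfikkn2 (control) and 3.00 for Acvr2b (mutant) as class ratios. A mitochondrial limit of 5% gave -0.065 for Acvr2b in RPE-like cells. Without the 5 richest cells, Fst in RPE-like cells was -2.39 and Wfikkn2 in RPE-like over mesenchyme-like cells 0.53 (mutant).

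Genes beyond the fold limit numbered 1521 in RPE-like, 765 in retinal progenitor-like, 879 in ganglion cell-like and 1269 in mesenchyme-like cells. They were 436, 224, 269 and 480 at a fold of 2, 2747, 1859, 2140 and 2515 at a minimum of 1 UMI, and 312, 194, 148 and 469 at a minimum of 100 UMIs. Wfikkn1 never reached 20 UMIs in a class.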

Other observations

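The highest Fst level of any class was in Schwann cell precursor-like cells, the glial precursors of peripheral nerves, which were too few for the comparisons above. Their 38 control cells held 194 Fst UMIs, or 321 CPM (277 to 369), and their 40 mutant cells held 162, or 239 CPM (203 to 279). Fst was seen in 26 cells in each library, and a single control cell held 81 UMIs, without which the mutant level was not below the control. Acvr2a stood at 61.1 (43.0 to 84.3) and 31.0 CPM (19.2 to 47.3) in these cells, a ratio of 0.506 (0.282 to 0.888). No Wfikkn2 UMI was found in them, which allows up to 4.96 CPM (control) and 4.42 CPM (mutant).

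Melanocyte-like cells, the other pigmented cells of the eye cup, numbered 50 in the control and 30 in the mutant. They held Gdf11 at 32.4 CPM (20.3 to 49.0) and 30.5 CPM (16.2 to 52.2), and no Wfikkn2 UMI, which allows up to 4.41 and 7.04 CPM. In RPE-like cells Wfikkn2 was at 18.8 and 10.6 CPM, so the control interval of 14.7 to 23.7 CPM lay above the limit in control melanocyte-like cells, whereas the mutant interval of 6.49 to 16.4 CPM included the limit in mutant melanocyte-like cells.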
